A study of Mus musculus with 12 samples.

Results

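Genes of the oligodendrocyte lineage were followed through cultures that were meant to hold astrocytes. The set was 9 genes chosen by name, the progenitor genes *Olig1*, *Olig2*, *Nkx2-2*, *Sox10*, *Pdgfra*, *Cspg4* and *Gpr17* and the myelin genes *Mbp* and *Cnp*. Of these, 8 were matched by gene symbol to a row of the count table, which lists 18903 genes in all, and *Gpr17* was not analysed here. That left 6 progenitor genes and 2 myelin genes, and all 8 passed the filter on low counts. RNA-seq had been run on primary astrocytes grown from the brains of mice at postnatal day 1 (P1), day 6 (P6) and day 8 (P8), to follow what loss of RACK7, a chromatin reader protein encoded by *Zmynd8*, does to transcription. Each age had 2 libraries from WT mice (hGFAP-cre::Rack7+/+) and 2 from Rack7-cKO mice (hGFAP-cre::Rack7 fl/fl), which gave 12 libraries in 6 groups. All groups therefore carried the Cre transgene, whose human GFAP promoter is active in stem cells of the dorsal forebrain before birth, so deletion is driven mainly in cells that descend from them. The dissociated cells were grown for some days, shaken to detach microglia and oligodendrocytes, and grown again until confluent before RNA was taken. Ages are those of the mice when the brains were taken, and each age was a separate set of cultures. A rise or fall between ages is thus a difference between cultures. Age cannot be told apart from how each set was prepared. The libraries of a group are labelled as biological replicates, and how many animals stand behind each library was not stated.

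Oligodendrocytes arise from dividing precursor cells that spread through the brain and then wrap axons in myelin. The transcription factors OLIG1, OLIG2, NKX2-2 and SOX10 set up the lineage and switch on myelin genes, while PDGFRA, the receptor for the growth factor PDGF-A, keeps precursors dividing and the proteoglycan NG2, encoded by *Cspg4*, marks their surface. MBP compacts the myelin sheath and CNP, an enzyme of the inner myelin layers, appears as cells begin to differentiate. Several of these genes are also used elsewhere: OLIG factors occur in part of the astrocytes, *Pdgfra* in fibroblasts, *Cspg4* in pericytes and smooth muscle, and *Sox10* in Schwann cells and other neural crest derivatives.

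Promoter sequences of 5 of the 9 genes were matched in RefSeq (GRCm38.p6). The 250 bases before the RefSeq start are shown for *Olig2*, *Nkx2-2*, *Pdgfra* and *Cspg4*. *Olig2* and *Nkx2-2* were lower at P8 than at P6, *Pdgfra* was higher, and the genotype difference of *Cspg4* changed direction. Each sequence is written 5′ to 3′ along the gene's own strand. Capitals mark E-boxes (CANNTG, the short motif that OLIG proteins and other basic helix-loop-helix factors bind) and TATA boxes (TATAAA), both searched on both strands, and no E-box overlapped a TATA box in these windows.
Olig2 (chr16:91225300-91225549, plus strand): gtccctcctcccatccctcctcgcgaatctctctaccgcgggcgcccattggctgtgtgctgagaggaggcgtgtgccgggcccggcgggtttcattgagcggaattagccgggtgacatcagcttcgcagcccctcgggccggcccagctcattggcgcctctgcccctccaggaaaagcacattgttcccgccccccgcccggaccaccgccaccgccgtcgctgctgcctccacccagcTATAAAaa
Nkx2-2 (chr2:147186403-147186652, minus strand): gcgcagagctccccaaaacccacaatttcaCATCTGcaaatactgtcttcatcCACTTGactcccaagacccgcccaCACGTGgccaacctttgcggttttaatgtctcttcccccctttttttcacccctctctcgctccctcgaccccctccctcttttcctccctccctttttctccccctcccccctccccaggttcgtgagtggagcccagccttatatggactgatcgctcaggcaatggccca
Pdgfra (chr5:75152001-75152250, plus strand): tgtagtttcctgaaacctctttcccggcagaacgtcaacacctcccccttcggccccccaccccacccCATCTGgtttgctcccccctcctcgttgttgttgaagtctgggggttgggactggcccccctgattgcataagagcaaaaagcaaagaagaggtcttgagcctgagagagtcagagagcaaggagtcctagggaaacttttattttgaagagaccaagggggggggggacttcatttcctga
Cspg4 (chr9:56864854-56865103, plus strand): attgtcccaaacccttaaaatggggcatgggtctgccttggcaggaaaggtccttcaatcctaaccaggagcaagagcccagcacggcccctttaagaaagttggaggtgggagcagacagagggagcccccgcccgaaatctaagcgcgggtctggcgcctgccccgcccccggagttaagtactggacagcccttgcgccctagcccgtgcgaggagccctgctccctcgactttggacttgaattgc
The *Nkx2-2* window held 3 E-boxes and the *Pdgfra* window 1, and none was found in the windows of *Olig2* and *Cspg4*. Of all 32841 RefSeq promoter windows of this length without an unread base, 66.2% held at least 1 E-box and 12.4% a TATA box, which among these 4 genes only *Olig2* had. The *Olig2* window had a GC content of 66.8% and 22 CpG sites, against medians of 52.4% and 6 over all windows. *Nkx2-2* (56.4%, 8 CpG), *Pdgfra* (54.4%, 4 CpG) and *Cspg4* (60.4%, 12 CpG) lay nearer to these medians. The windows of *Olig2*, *Nkx2-2* and *Cspg4* overlap the gene spans of the GENCODE annotation, which begin further upstream. The TATA box of *Olig2* lies inside that gene's span. A match is a description of the letters only.

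The libraries held 54413504 to 89183250 counts. Within groups, Spearman correlations over genes between the 2 replicates were 0.991 to 0.993, and replicates differed by far more than counting noise, at 30.5 to 47.1 units of chi-square per degree of freedom, so all 12 were counted as separate libraries. Values below are in CPM, a gene's count relative to the total of its library after TMM scaling by edgeR, which corrects for depth and composition. The targeted gene, *Zmynd8*, was at 136.0 to 136.3 CPM in the libraries labelled WT and 213 to 216 CPM in those labelled cKO at P1. It was at 114 to 116 against 230 to 242 CPM at P6 and 99.98 to 104 against 160 to 171 CPM at P8. At every age the targeted gene thus had more counts where the label says cKO, not fewer (log2 fold changes of 0.65, 1.04 and 0.70). It is a count over the whole gene and does not resolve the loxP-flanked exons, so it cannot test the label either way. The paper states that the RACK7 protein level in such cultures was checked by immunoblot. It also reported far fewer sites bound by RACK7 in cKO than in WT astrocytes. Neither was analysed here. Every genotype difference given here is therefore one between libraries by their labels.

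RNA from a whole culture cannot tell fewer cells of a type from less RNA per cell, and this holds for all values below. The most abundant astrocyte markers, *Gfap*, *Aqp4* and *Slc1a3*, were at 176 CPM, 109 CPM and 94.7 CPM in the lowest library of each. Means over all libraries of the other astrocyte markers examined ran from 9.06 CPM (*S100b*) to 212 CPM (*Gja1*). The cultures also held RNA of other cells. Microglial *C1qa* was at no less than 570 CPM, and the collagen gene *Col1a1*, a fibroblast marker, ran from 233 CPM to 9912 CPM.

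Genes were compared with each other per kilobase of exon, counting all annotated exons of a gene. This scale is rough, since it can understate genes with many transcripts, such as *Mbp* with 16 against 1 for *Olig1*. On it *Olig1* and *Cnp* led in P1 cultures labelled WT with levels of 19.4 ± 0.19 and 18.7 ± 0.75 CPM per kb. Levels per kb are given with the SD (n = 2), and log2 fold changes below with the standard error (SE) of the fit. *Olig2* followed at 6.86 ± 0.12 CPM per kb, and then *Mbp* at 2.04 ± 0.18, *Cspg4* at 1.91 ± 0.25 and *Nkx2-2* at 1.73 ± 0.21 CPM per kb, 3 neighbours that did not differ beyond their spread. *Sox10* (0.654 ± 0.14 CPM per kb) and *Pdgfra* (0.268 ± 0.12 CPM per kb) were lowest. In these P1 cultures *Olig1*, *Olig2* and *Nkx2-2* thus lay well above *Pdgfra*, the receptor that marks precursors, while *Sox10* lay near it. By P8 the order in cultures labelled WT had changed to *Cnp* (10.9 ± 0.20), *Olig1* (7.75 ± 0.43), *Cspg4* (7.19 ± 0.017) and *Mbp* (3.38 ± 0.34), with *Olig2* (1.82 ± 0.087), *Pdgfra* (1.62 ± 0.11) and *Sox10* (1.51 ± 0.33 CPM per kb) close together and *Nkx2-2* last at 0.241 ± 0.12 CPM per kb. In P8 cultures labelled cKO, *Cnp* (12.5 ± 0.052) and *Olig1* (7.73 ± 0.43) again led, *Mbp* (6.17 ± 0.022) came before *Cspg4* (2.84 ± 0.059), and *Sox10* was last (0.634 ± 0.16 CPM per kb) beside *Nkx2-2* (0.807 ± 0.081 CPM per kb).

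**Figure D1:**
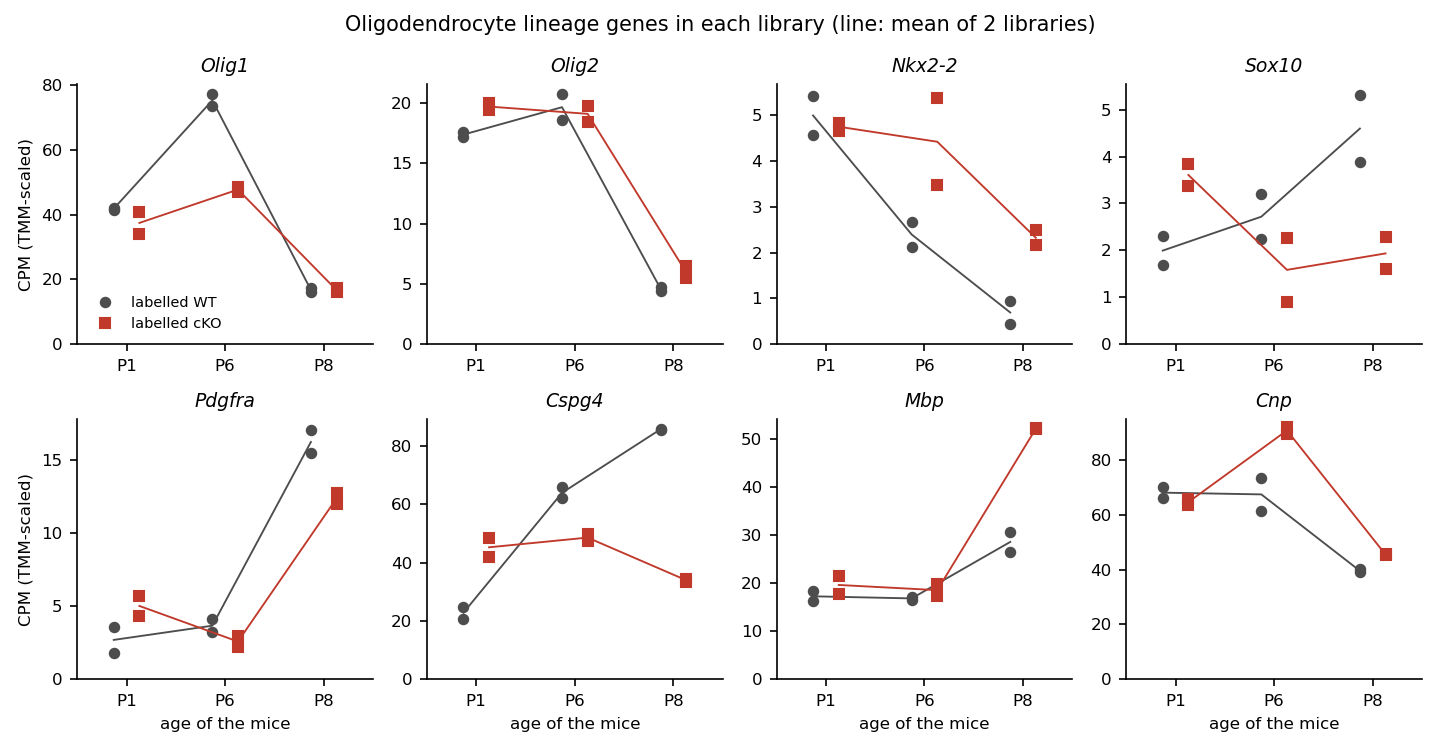
CPM (vertical axis, linear, from 0) of the 8 genes in each of the 12 libraries at P1, P6 and P8, with circles for libraries labelled WT, squares for those labelled cKO and lines through the means of 2 libraries. *Olig1*, *Olig2* and *Nkx2-2* end lower at P8 than at P6 in both genotypes, *Pdgfra* and *Mbp* end higher, and *Cspg4* ends at 85.6 and 85.9 CPM in libraries labelled WT.

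Differences were tested with edgeR's quasi-likelihood test over 17938 genes with all 12 libraries in 1 fit, and p-values were adjusted over all of those genes (Benjamini-Hochberg). A gene was called where its adjusted p was below 0.05 and its fold change at least 1.5. With 2 libraries a group, an exact permutation test of a single gene could not go below p = 0.333, so all calls rest on the spread shared across genes. Between genotypes at P1, 1 of the 8 genes was called higher in libraries labelled cKO (*Cspg4*) and 0 lower, where 4.01% and 0.892% of all genes were. At P6, 0 were higher and 1 lower (*Olig1*), against 7.16% and 6.38% of all genes. At P8, 2 were higher (*Nkx2-2*, *Mbp*) and 2 lower (*Sox10*, *Cspg4*), against 11.2% and 8.37%. Between ages, the step from P1 to P6 moved 2 genes up (*Olig1*, *Cspg4*) and 1 down (*Nkx2-2*) in libraries labelled WT, beside 12.2% and 10.9% of all genes. It moved 0 up and 1 down (*Pdgfra*) in those labelled cKO, beside 11.0% and 10.4%. The step from P6 to P8 moved 6 of the 8 genes in each genotype, 2 up (*Pdgfra*, *Mbp*) and 4 down (*Olig1*, *Olig2*, *Nkx2-2*, *Cnp*). All genes moved up and down at 8.66% and 10.3% over that step in libraries labelled WT and at 11.9% and 12.2% in those labelled cKO. Whether the genotype difference itself changed with age was called by adjusted p alone. It changed from P1 to P6 for 3 of the 8 genes (15.3% of all genes), from P6 to P8 for 3 (21.5%) and from P1 to P8 for 5 (25.7%).

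**Figure D2:**
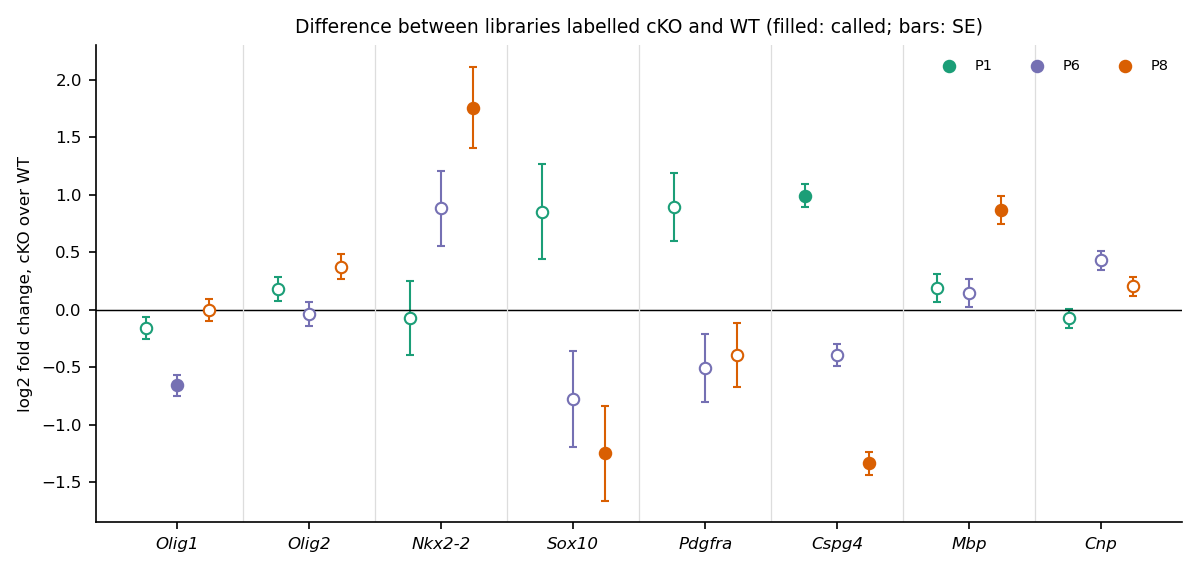
Log2 fold change between libraries labelled cKO and WT (vertical axis) for the 8 genes at P1, P6 and P8, with bars for standard errors and filled points for called differences. *Cspg4* goes from 0.99 at P1 to -1.34 at P8, and *Nkx2-2* and *Mbp* stand above 0 at P8.

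*Olig1* and *Olig2* encode the basic helix-loop-helix factors that name the lineage. The genes are neighbours on chromosome 16 (*Olig2*, ENSMUSG00000039830, chr16:91225457-91228677; *Olig1*, ENSMUSG00000046160, chr16:91269772-91271933, both on the plus strand, GRCm38), 41.1 kb apart. *Olig1* was at 41.6 and 42.1 CPM in P1 libraries labelled WT and at 34.0 and 40.9 CPM in those labelled cKO. At P6 it was at 73.4 and 77.1 CPM against 46.9 and 48.6 CPM, and at P8 at 17.4 and 16.1 CPM against 17.4 and 16.1 CPM. The genotypes stood apart at P1 and P6, where every library labelled WT lay above every library labelled cKO, and overlapped at P8. The P1 difference was not called, at a log2 fold change of -0.16 (adjusted p = 0.378). The P6 difference was a log2 fold change of -0.66 ± 0.09 (SE), or 1.58-fold lower in libraries labelled cKO (adjusted p = 0.000749). At P8 it was -0.0039 (95% interval -0.22 to 0.21). Between ages *Olig1* rose from P1 to P6 in libraries labelled WT by a log2 fold change of 0.85 ± 0.09 (adjusted p = 8.47e-05). From P6 to P8 it fell by 2.17 ± 0.10 (adjusted p = 3.36e-07). The first step in those labelled cKO was 0.35 ± 0.09 (adjusted p = 0.0154), under the fold needed for a call, and the second was a fall by 1.51 ± 0.10 (adjusted p = 1.89e-06). The genotype difference was more negative at P6 than at P1 by 0.50 on the log2 scale (adjusted p = 0.0335) and rose again by 0.65 from P6 to P8 (adjusted p = 0.00715). The first of these calls was lost on leaving out any of 7 of the 8 libraries at P1 and P6, all but the first labelled cKO at P1, with values of -0.36 to -0.53 and adjusted p of 0.0606 to 0.0932. A noncoding gene, *Gm15966*, overlaps *Olig1* on the other strand, and no source used here says whether counting used strand.

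*Olig2* went with *Olig1* in its late fall, from 18.6 and 20.7 CPM at P6 to 4.76 and 4.45 CPM at P8 in libraries labelled WT. Those labelled cKO went from 18.4 and 19.8 CPM to 5.47 and 6.44 CPM. P1 values were 17.1 and 17.6 CPM in libraries labelled WT and 19.4 and 19.99 CPM in those labelled cKO, so that all P1 and P6 libraries lay above all P8 libraries by a wide gap. The fall was 2.09 ± 0.11 on the log2 scale in libraries labelled WT (4.27-fold, adjusted p = 8.78e-07) and 1.68 ± 0.11 in those labelled cKO (3.20-fold, adjusted p = 2.22e-06). From P1 to P6 *Olig2* gave log2 fold changes of 0.18 (95% interval -0.06 to 0.41) and -0.04 (-0.28 to 0.19). Its genotype difference was not called at any age, at 0.18, -0.04 and 0.37 at P1, P6 and P8, although the last passed the adjusted p (0.0257) with a fold of 1.30. The change of that difference from P6 to P8, 0.41, had an adjusted p of 0.0862.

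*Nkx2-2* (ENSMUSG00000027434, chr2:147177546-147194243, minus strand), a homeobox factor that acts at the start of differentiation, was among the rarer transcripts. In libraries labelled WT it went from 5.41 and 4.56 CPM at P1 to 2.11 and 2.67 CPM at P6 and 0.942 and 0.443 CPM at P8. In those labelled cKO it was at 4.66 and 4.83 CPM, then 5.36 and 3.47 CPM, then 2.16 and 2.48 CPM. The genotypes overlapped at P1 and stood apart at P6 and P8, with the libraries labelled cKO higher. The log2 fold change reached 1.76 ± 0.35 at P8 (3.38-fold, adjusted p = 0.00391), and the P6 value was 0.88 ± 0.33 (adjusted p = 0.0807, no call). The P6 difference passed on leaving out either P8 library labelled WT (0.88 in both, adjusted p = 0.0340 and 0.0337). Relative to P1, the P8 difference was larger by 1.83 (adjusted p = 0.0199), a call lost without the first P1 library labelled WT, either P1 library labelled cKO or the second P8 library labelled cKO (1.70 to 1.85, adjusted p of 0.0523 to 0.0622). The change from P6 to P8, 0.87 (adjusted p = 0.241), passed without the first P8 library labelled WT (1.501, adjusted p = 0.0464). In libraries labelled WT *Nkx2-2* fell by 1.06 ± 0.33 from P1 to P6 (adjusted p = 0.0288) and by 1.80 ± 0.35 from P6 to P8 (adjusted p = 0.00362). The first of these calls did not survive the loss of any of the 4 libraries it compared (-0.90 to -1.24, adjusted p of 0.0555 to 0.145). In libraries labelled cKO the P6 to P8 fall of 0.93 ± 0.33 just passed (adjusted p = 0.0491) and was lost on leaving out any 1 of 9 libraries, namely all 4 at P1, both labelled WT at P6, the first labelled cKO at P6 and both labelled cKO at P8, at -0.58 to -1.03 with adjusted p of 0.0597 to 0.289. The RefSeq start used above lies inside the longer GENCODE gene span. The antisense genes *Nkx2-2os* and *6430503K07Rik* overlap it, and the latter had 0 to 20 counts a library.

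*Sox10* (ENSMUSG00000033006, chr15:79154908-79165240, minus strand), the factor that sustains the lineage and directly drives myelin genes, was low everywhere. Libraries labelled WT held 1.69 and 2.30 CPM at P1, 3.20 and 2.23 CPM at P6 and 5.31 and 3.88 CPM at P8. Those labelled cKO held 3.84 and 3.37 CPM, then 0.899 and 2.27 CPM, then 2.28 and 1.59 CPM. The genotypes were apart at P1, with the libraries labelled cKO higher, overlapped at P6, and were apart at P8 with those libraries lower. Only the P8 difference was called, at a log2 fold change of -1.25 ± 0.41 (2.37-fold lower, adjusted p = 0.0438). That call was lost on leaving out either P1 library of either label, either P6 library labelled WT or any of the 4 libraries at P8, with values of -1.003 to -1.53 and adjusted p of 0.0515 to 0.217. At P1 the difference was 0.85 ± 0.41 (adjusted p = 0.28) and at P6 -0.78 ± 0.42 (adjusted p = 0.221). Without the second P6 library labelled cKO the P6 difference passed, at -1.59 (adjusted p = 0.0252). The difference changed from P1 to P8 by -2.10 (adjusted p = 0.0273), and this passed no longer without the first P1 library labelled WT, either P1 library labelled cKO, the first P8 library labelled WT or the second labelled cKO (-1.85 to -2.19, adjusted p of 0.0525 to 0.0975). No step between ages was called, with 0.44 and 0.76 in libraries labelled WT and -1.19 (adjusted p = 0.051) and 0.29 in those labelled cKO. The -1.19 became -2.003 without the second P6 library labelled cKO (adjusted p = 0.00646), and without it the change of the genotype difference from P1 to P6 went from -1.63 (adjusted p = 0.105) to -2.44 (adjusted p = 0.0147).

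Schwann cell and neural crest markers, a list of 9 genes of which 8 were measured, are given beside *Sox10*. Called lower in libraries labelled cKO were 3 of 8 at P1, 4 of 8 at P6 and 4 of 8 at P8, with 0 higher at any age. Over all genes 0.892%, 6.38% and 8.37% were called lower at these ages and 4.01%, 7.16% and 11.2% higher. The list had medians of -0.13, -1.01 and -0.75 where all genes had medians of 0, 0 and 0.012. At P8 *Ngfr*, a neurotrophin receptor of Schwann cells, was at 19.7 and 19.7 CPM in libraries labelled WT and at 2.47 and 1.57 CPM in those labelled cKO. *Egr2*, the factor that drives peripheral myelination, was uneven, at 33.6 and 5.31 CPM against 14.2 and 13.0 CPM at P8, and reached 136 and 138 CPM in P6 libraries labelled WT. *Prx*, a peripheral myelin protein gene, lay between 7.35 and 24.3 CPM in all libraries and was not called. The summed level of the 8 genes was 30.9 to 36.9 CPM and 37.1 to 37.4 CPM in P1 libraries labelled WT and cKO, 182 to 187 CPM and 56.4 to 64.9 CPM at P6, and 52.1 to 79.2 CPM and 35.6 to 35.7 CPM at P8. In P6 libraries labelled WT this sum was mostly *Egr2*. The part of Schwann and neural crest cells in the *Sox10* values was not tested.

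**Figure D3:**
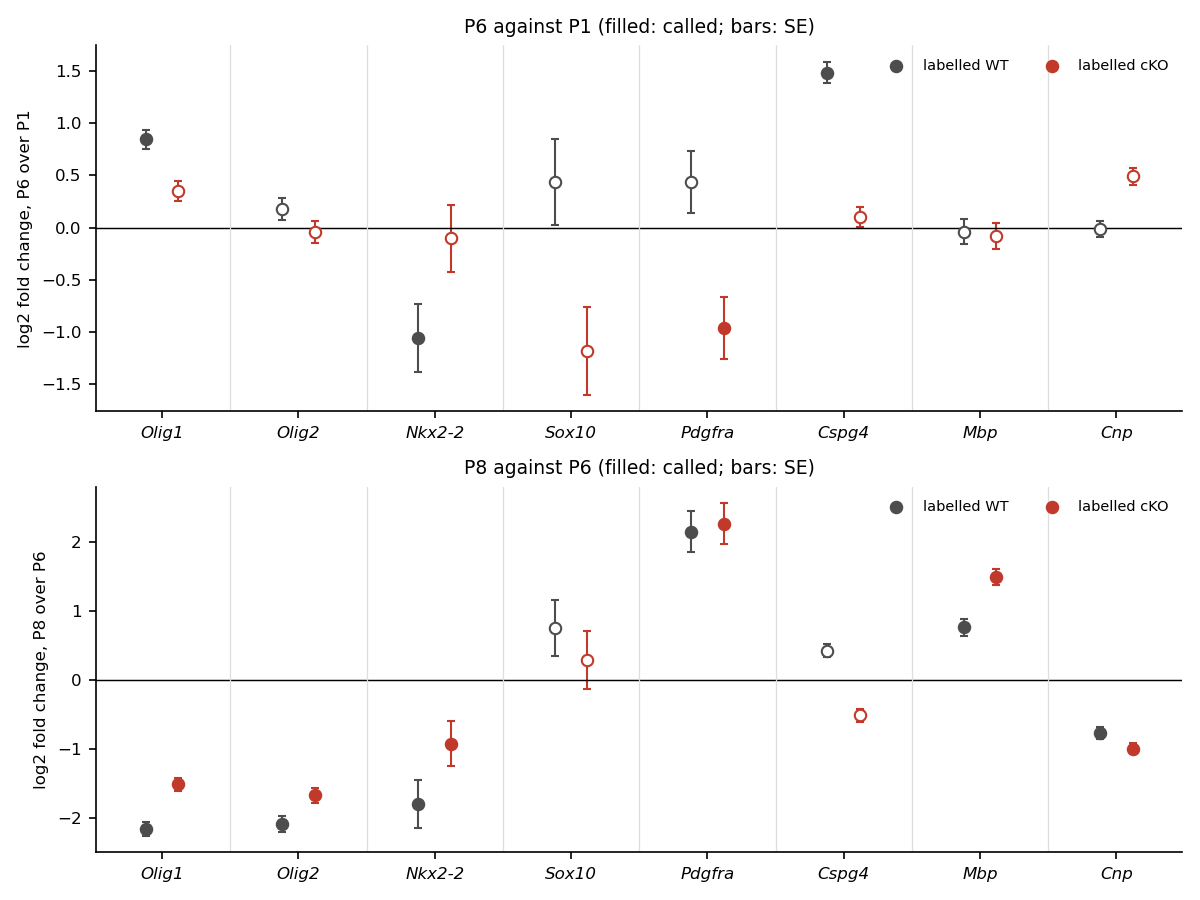
Log2 fold change from P1 to P6 (upper panel) and from P6 to P8 (lower panel) for the 8 genes, with black for libraries labelled WT, red for those labelled cKO, bars for standard errors and filled points for called changes. Over the later step *Olig1*, *Olig2*, *Nkx2-2* and *Cnp* fell and *Pdgfra* and *Mbp* rose in both genotypes, while *Cspg4* has values of 0.42 and -0.52.

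*Pdgfra* (ENSMUSG00000029231, chr5:75152292-75198215, plus strand), the PDGF receptor of precursor cells, rose where the OLIG factors fell. In libraries labelled WT it was at 1.81 and 3.56 CPM at P1, 3.23 and 4.09 CPM at P6 and 15.5 and 17.1 CPM at P8. In those labelled cKO it was at 5.71 and 4.32 CPM, then 2.22 and 2.92 CPM, then 11.99 and 12.8 CPM. All P8 libraries lay above all others in both genotypes. From P6 to P8 the rise was 2.15 ± 0.30 on the log2 scale in libraries labelled WT (4.44-fold, adjusted p = 0.000461) and 2.27 ± 0.30 in those labelled cKO (4.81-fold, adjusted p = 0.000253), and the 2 steps differed by 0.12 (95% interval -0.80 to 1.04). From P1 to P6 it fell by 0.96 ± 0.30 in libraries labelled cKO (adjusted p = 0.0292), lost without the first P1 or the first P6 library labelled cKO (-0.75 and -0.78, adjusted p = 0.152 and 0.158). In libraries labelled WT that step was 0.44 (adjusted p = 0.277), and 1.02 (adjusted p = 0.0187) without the second P1 library labelled WT. No genotype difference was called. The values were 0.89 ± 0.29 at P1 (adjusted p = 0.105), -0.51 ± 0.30 at P6 (0.259) and -0.39 ± 0.28 at P8 (0.329), and the P1 difference passed without the second P1 library labelled WT (1.47, adjusted p = 0.0164). The difference changed from P1 to P8 by -1.28 (adjusted p = 0.0459), a call lost on leaving out any 1 library except the second P1 library labelled WT, at -0.88 to -1.47 with adjusted p of 0.0504 to 0.141. The change from P1 to P6 was -1.40 (adjusted p = 0.0537), or -1.99 without that library (adjusted p = 0.0061). Small noncoding genes overlap *Pdgfra* (*Gm42802*, *Gm42803*, *Mir7025*).

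Fibroblast markers are given beside *Pdgfra*. Of a list of 10 genes, 9 were measured. In libraries labelled WT 9 of 9 were called higher at P6 than at P1 and 8 of 9 higher at P8 than at P6. Over all genes 12.2% and 8.66% were called higher at these steps. In libraries labelled cKO 1 was higher and 5 were lower at P6 than at P1 (median -2.33), and 8 of 9 were higher at P8 than at P6. Over all genes 11.0% were higher and 10.4% lower at the first step there, and 11.9% were higher at the second. The summed level of the 9 fibroblast markers was 375 to 388 CPM at P1, 6786 to 6842 CPM at P6 and 26074 to 26216 CPM at P8 in libraries labelled WT. Those labelled cKO held 2428 to 2463 CPM, 2452 to 2630 CPM and 8154 to 8403 CPM. Against libraries labelled WT, 8 of 9 were called higher at P1 (median 2.85). At P6, 8 of 9 were called lower (median -4.65), and at P8 9 of 9 were (median -2.42). *Lum* had 0 counts in both P6 libraries labelled cKO. The P6 median was the same with *Lum* set at a floor of 3 counts over that group. The shares of all genes were 4.01% higher at P1, 6.38% lower at P6 and 8.37% lower at P8. *Col1a2* and *Col3a1*, fibrillar collagen genes, had genotype log2 fold changes of 3.51 and 3.52 at P1. At P6 these were -1.38 and -5.63, and by P8 they were -1.63 and -2.11. *Col1a1* gave 2.16, -0.82 and -1.30. The signs of these 3 genes were those of *Pdgfra* and *Cspg4* at each age. The part of fibroblasts in either gene's values was not tested.

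*Cspg4* (ENSMUSG00000032911, chr9:56865033-56899870, plus strand), the NG2 proteoglycan gene, showed the clearest turn between genotypes. At P1 it was at 20.7 and 24.9 CPM in libraries labelled WT and 41.9 and 48.6 CPM in those labelled cKO. At P6 it was at 65.8 and 62.1 CPM against 47.4 and 49.8 CPM, and at P8 at 85.6 and 85.9 CPM against 33.4 and 34.4 CPM. The groups did not overlap at any age, with the libraries labelled cKO higher at P1 and lower at P6 and P8. The log2 fold change was 0.99 ± 0.10 for P1 (1.98-fold, adjusted p = 0.00028), -0.40 ± 0.10 for P6 (adjusted p = 0.0157, under the fold for a call) and -1.34 ± 0.10 at P8 (2.53-fold lower, adjusted p = 7.54e-06). The difference changed from P1 to P6 by -1.39 (adjusted p = 0.000162), from P6 to P8 by -0.94 (adjusted p = 0.00121) and from P1 to P8 by -2.33 (adjusted p = 3e-06). In libraries labelled WT *Cspg4* rose from P1 to P6 by 1.49 ± 0.10 (2.80-fold, adjusted p = 2.91e-06). In those labelled cKO the same step was 0.10 (95% interval -0.12 to 0.32). Its P6 to P8 steps, 0.42 (adjusted p = 0.00859) and -0.52 (adjusted p = 0.00243), passed the adjusted p in opposite directions with folds under 1.5.

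Mural cells, the pericytes and smooth muscle cells of vessels, also express *Cspg4*, and of 11 of their markers 7 were measured. Among all genes tested, the P1 shares called higher and lower in libraries labelled cKO were 4.01% and 0.892%. The P6 shares were 7.16% and 6.38%, and the P8 shares 11.2% and 8.37%. Of the mural markers, 0 and 0 of 7 were called higher and lower at P1, then 1 and 4 for P6. For P8 these counts were 2 and 1, and the list's medians at the 3 ages were 0.50, -0.72 and 0.37. The summed level was 2641 to 2644 CPM against 3807 to 3821 CPM at P1, 3315 to 3421 CPM against 3955 to 4513 CPM at P6 and 2416 to 2445 CPM against 3089 to 3123 CPM at P8, so it was higher in libraries labelled cKO at all 3 ages. That sum was mostly the smooth muscle genes *Acta2* (1581 to 2767 CPM) and *Tagln* (676 to 1658 CPM), which many cultured cells also make. *Anpep*, a pericyte aminopeptidase, had genotype values of -0.14, -1.17 and 0.70. The pericyte genes *Kcnj8*, *Abcc9* and *Higd1b* were not analysed here, and the part of mural cells in the *Cspg4* values was not tested.

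**Figure D4:**
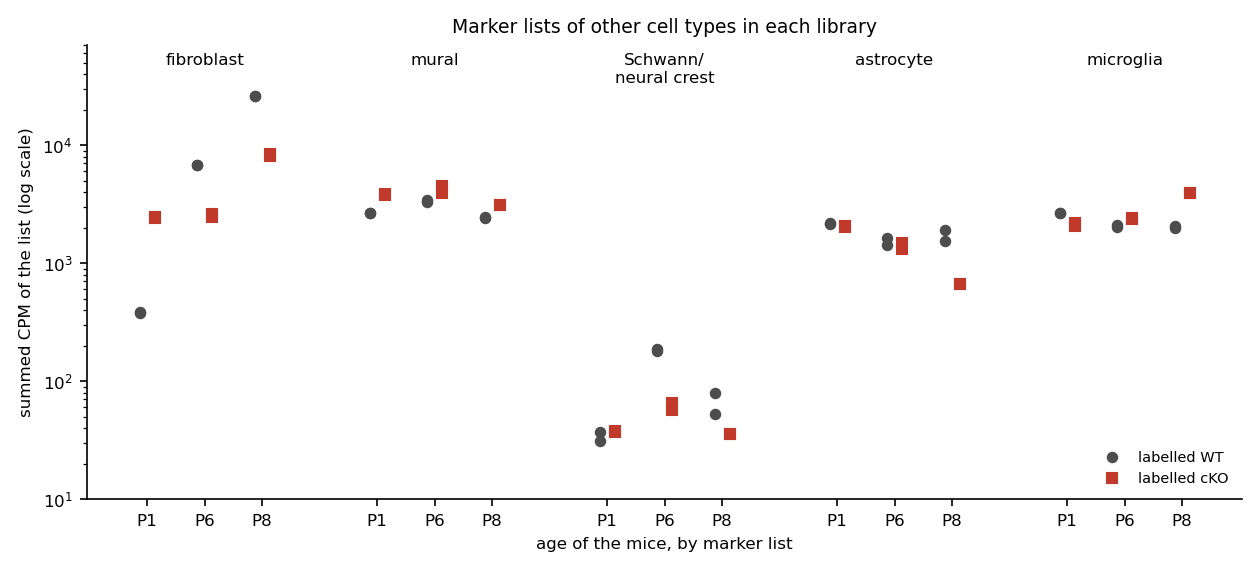
Summed CPM of 5 marker lists (vertical axis, log scale) in each library at P1, P6 and P8, with circles for libraries labelled WT and squares for those labelled cKO. The fibroblast sum spans from 375 CPM at P1 to 26216 CPM at P8 in libraries labelled WT, and the microglia sum is highest in P8 libraries labelled cKO.

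Of the myelin genes, *Mbp* (ENSMUSG00000041607, chr18:82475146-82585637, plus strand) rose late and more so in libraries labelled cKO. It was at 16.2 and 18.3 CPM in P1 libraries labelled WT and 21.6 and 17.7 CPM in those labelled cKO. At P6 it was at 17.1 and 16.6 CPM against 17.3 and 19.8 CPM, and at P8 at 26.6 and 30.7 CPM against 52.1 and 52.4 CPM. The genotypes overlapped at P1, stood narrowly apart at P6 with the libraries labelled cKO higher, and lay far apart at P8. The P8 difference was a log2 fold change of 0.87 ± 0.12 (1.83-fold, adjusted p = 0.000453), after 0.18 at P1 and 0.14 at P6 (adjusted p = 0.446 and 0.465). From P6 to P8 *Mbp* rose by 0.77 ± 0.12 in libraries labelled WT (1.70-fold, adjusted p = 0.00111) and by 1.49 ± 0.12 in those labelled cKO (2.82-fold, adjusted p = 1.09e-05). These steps differed by 0.73 (adjusted p = 0.015), a call lost without the first P8 library labelled WT (0.63, adjusted p = 0.0564). From P1 to P8 the genotype difference changed by 0.68 (adjusted p = 0.0169). That call was lost without the second P1 library of either label, the first P8 library labelled WT or the second P8 library labelled cKO (0.55 to 0.68, adjusted p of 0.0510 to 0.0638). The gene also gives rise to the golli transcripts, which are made in cells that form no myelin, and a count over the gene does not separate them.

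*Cnp* (ENSMUSG00000006782, chr11:100574904-100591729, plus strand) was at 66.3 and 70.1 CPM in P1 libraries labelled WT and 65.8 and 63.7 CPM in those labelled cKO. At P6 it was at 61.6 and 73.5 CPM against 89.5 and 92.3 CPM, and at P8 at 39.1 and 40.1 CPM against 45.7 and 45.4 CPM. At P1 every library labelled cKO lay below those labelled WT, and at P6 and P8 every one lay above them. No genotype difference reached the fold for a call, with log2 fold changes of -0.08, 0.43 (adjusted p = 0.0039) and 0.20 (adjusted p = 0.0862) at P1, P6 and P8. The difference changed from P1 to P6 by 0.50 (adjusted p = 0.0165), lost without the second P1 library of either label (0.46 and 0.48, adjusted p = 0.0630 and 0.0605). Its changes from P6 to P8 (-0.23) and from P1 to P8 (0.28) were not called, the first passing without the second P6 library labelled WT (-0.35, adjusted p = 0.0300) and the second without either P6 library labelled WT (adjusted p = 0.0349 and 0.0377). From P6 to P8 *Cnp* fell by 0.77 ± 0.08 in libraries labelled WT (1.71-fold, adjusted p = 8.71e-05) and by 0.998 ± 0.08 in those labelled cKO (1.997-fold, adjusted p = 1.01e-05). The myelin genes thus moved in opposite directions over the same step in both genotypes. *Dnajc7*, a protein-coding gene on the other strand, overlaps *Cnp*.

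Other genes of the precursor and newly formed oligodendrocyte stages were described from a list of 24, of which 19 were measured. In libraries labelled cKO 5 were called higher and 2 lower at P1, then 6 and 2 for P6 and 6 and 4 for P8, with medians of 0.05, 0.06 and 0.22. Over all genes 4.01% were called higher and 0.892% lower at P1, with 7.16% and 6.38% for P6 and 11.2% and 8.37% for P8, and these shares also stand beside the lists that follow. *Bcas1*, a gene of newly forming myelinating cells, stood out at all ages. It was at 0.269 to 0.651 CPM in the libraries labelled WT and at 5.05 to 8.27 CPM in those labelled cKO, with log2 fold changes of 3.51 ± 0.25, 4.30 ± 0.26 and 3.79 ± 0.26 (adjusted p = 3.16e-05, 3.46e-06 and 4.56e-06). *Rlbp1*, a retinaldehyde-binding protein gene used in precursors and in some astrocytes, was likewise higher by 1.90, 3.13 and 2.99, from 0.194 to 1.31 CPM to 1.72 to 5.28 CPM. *C1ql1*, a secreted C1q-like protein of precursors, was lower by -1.76, -1.45 and -2.09, with 4.43 to 6.12 CPM in libraries labelled WT and 0.975 to 1.95 CPM in those labelled cKO. *Matn4*, a matrix protein gene, was lower only at P8 by the call (-2.57), where it was at 12.9 and 14.8 CPM against 2.39 and 2.31 CPM.

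The 3 most abundant genes of that list are shared with astrocytes or other cells. *Tns3*, a tensin, was not called (384 to 500 CPM). *Ptprz1*, a receptor phosphatase of glia, was called higher at P6 (0.71), from 121 and 125 CPM to 189 and 212 CPM. *Vcan*, the proteoglycan versican, had the signs of *Cspg4*, at 0.99, -1.78 and -1.31 at P1, P6 and P8, and reached 539 and 575 CPM in P8 libraries labelled WT. *Sox8* and *Sox6*, factors of the SOX family singled out after their values were seen, were called higher at P6 (1.39 and 0.71) and P8 (1.71 and 1.10). *Sox8*, the closest relative of *Sox10*, was thus at 10.7 and 11.6 CPM in P8 libraries labelled cKO against 3.55 and 3.30 CPM in those labelled WT, while *Sox10* had the opposite sign.

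Of 25 other myelin genes 15 were measured, and defining genes of mature oligodendrocytes such as *Mog*, *Mobp* and *Opalin* were not analysed here. In libraries labelled cKO 5 were called higher and 0 lower at P1, then 3 and 2 for P6 and 4 and 4 for P8, with medians of 0.62, 0.20 and 0.18. The most abundant was *Trf*, the iron carrier transferrin, higher by 0.71 at P1 and 0.98 at P8 (adjusted p = 0.000504 and 1.27e-05) and at 443 and 497 CPM in P8 libraries labelled cKO against 229 and 249 CPM. *Tspan2*, a tetraspanin of myelin, was higher at P6 and P8 (0.62 and 0.79), and *Adamts4*, a matrix protease of mature oligodendrocytes, at P1 (1.05). *Aspa*, the enzyme that splits N-acetylaspartate, and *Gal3st1*, which makes sulfatide, were higher at P6 (2.15 and 1.83) and P8 (1.86 and 1.03), at 5.18 CPM or less in any library. *Mal*, a myelin proteolipid, was lower at P8 (-2.18), at 4.78 and 4.61 CPM against 0.982 and 1.08 CPM. *Myrf*, the master factor of myelination, named after its values were seen, was higher at P1 (1.13) and lower at P8 (-1.18). At P8 it and *Mal* thus had the opposite sign to *Mbp*.

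*Cldn11*, the claudin of myelin, is also made by meningeal fibroblasts. It was at 0.268 and 0.541 CPM in P1 libraries labelled WT and 2.11 and 2.98 CPM in those labelled cKO, a log2 fold change of 2.61 (adjusted p = 0.00732). At P6 it was at 7.26 and 7.48 CPM against 4 and 6 counts, and at P8 at 36.6 and 38.6 CPM against 8 and 0 counts. Both differences were called lower, and their fitted sizes depend on the prior count and are not given. The fibroblast sum moved the same way at each age, and its part in *Cldn11* was not tested.

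**Figure D5:**
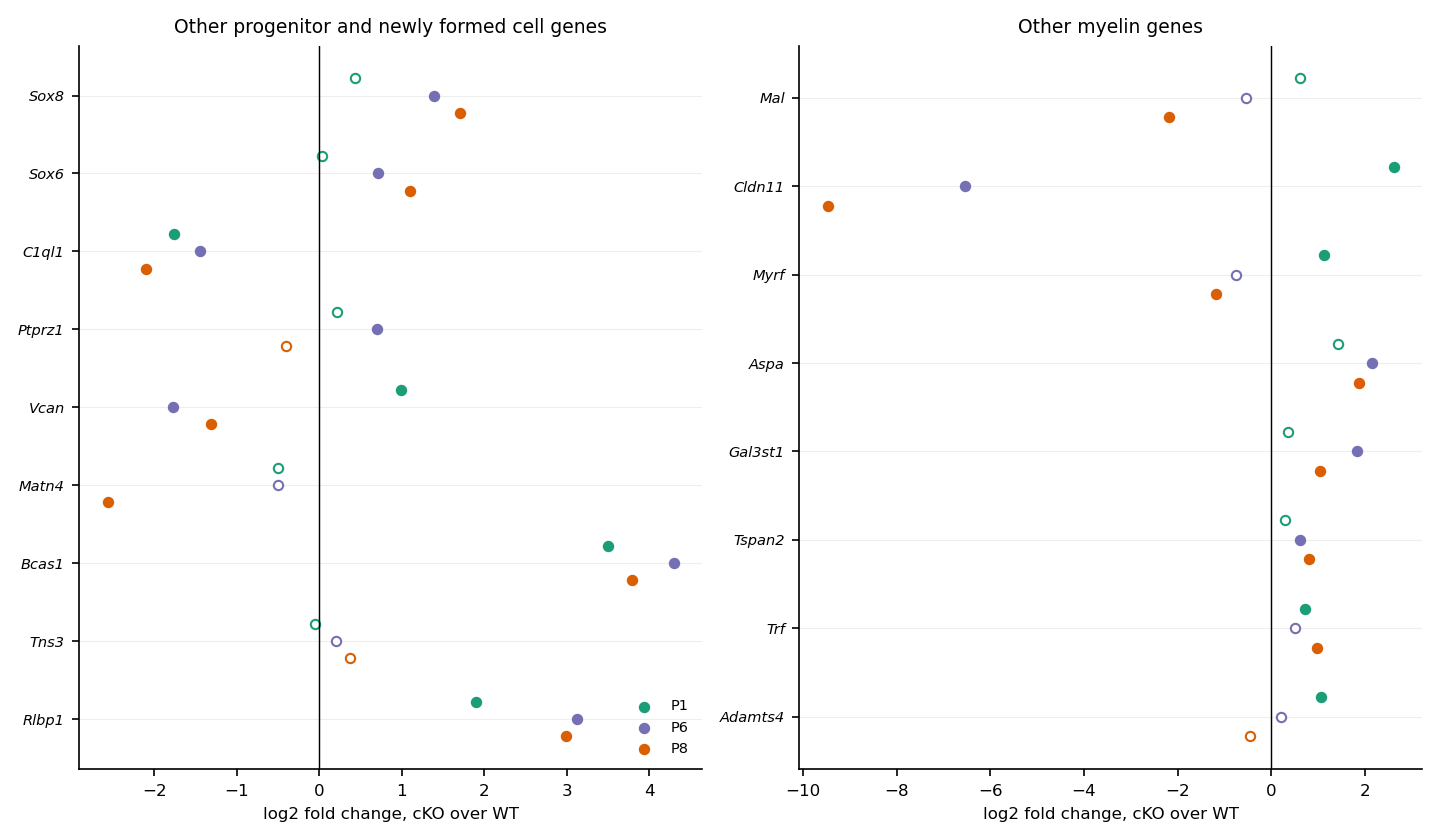
Log2 fold change between libraries labelled cKO and WT (horizontal axis) at P1, P6 and P8 for the other progenitor and early genes (left) and other myelin genes (right) named in the text, filled where called. *Bcas1* and *Rlbp1* lie to the right at all 3 ages, *C1ql1* to the left, and the points of *Cldn11* at P6 and P8 rest on groups with few counts.

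PDGF ligands and the other PDGF receptor made up a list of 5, all measured. Called higher and lower in libraries labelled cKO were 1 and 0 at P1, then 3 and 1 for P6 and 1 and 1 for P8, with medians of 0.47, 0.59 and -0.45. *Pdgfb*, whose product acts mostly on pericytes, was at 9.65 and 9.63 CPM in P8 libraries labelled WT and at 41.9 and 42.7 CPM in those labelled cKO (2.13 ± 0.09, adjusted p = 2.3e-07), after 1.16 at P6. *Pdgfa*, the ligand of PDGFRA on precursors, was higher at P6 (0.83), at 106 and 97.2 CPM in libraries labelled cKO against 52.5 and 61.8 CPM in those labelled WT, and had 0.47 and 0.56 at P1 and P8, under the fold for a call. *Pdgfc*, a further PDGFRA ligand, was lower at P8 (-0.93), and *Pdgfd*, a PDGFRB ligand, was higher at P6 (0.59). *Pdgfrb*, the receptor of pericytes and fibroblasts, was higher at P1 (0.60) and lower at P6 (-0.59). *Pdgfrb* was at 46.4 to 220.7 CPM over all libraries.

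Inhibitors of oligodendrocyte differentiation were a list of 9 with 7 measured. Called higher and lower were 0 and 0 at P1, then 2 and 0 for P6 and 1 and 1 for P8, with medians of -0.01, 0.22 and -0.24. *Lingo1*, a receptor subunit that holds back myelination, was higher at P6 and P8 (0.75 and 0.62, adjusted p = 0.0286 and 0.0474). *Id1*, a partner that blocks basic helix-loop-helix factors, was higher at P6 (0.63), and *Id3* of the same family was lower at P8 (-0.66). *Id2* and *Sox9*, abundant at 43.1 to 197 CPM and 47.2 to 125 CPM, were not called.

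Markers of the remaining cell types were counted in the same way. The shares of all genes called higher and lower were 4.01% and 0.892% at P1, 7.16% and 6.38% for P6, and 11.2% and 8.37% for P8. Of 9 astrocyte markers 1 was higher and 0 lower at P1, then 0 and 1 for P6 and 0 and 5 for P8 (medians 0.00063, -0.14 and -1.003), and their sum at P8 was 1531 to 1895 CPM in libraries labelled WT and 661 to 668 CPM in those labelled cKO. *Gfap* and *Aqp4* were lower at P8 by -1.07 and -2.01. Of 8 microglia markers 0 and 2, 0 and 1, and 5 and 1 were called higher and lower (medians -0.41, 0.089 and 1.03), and the sum at P8 was 1975 to 2060 CPM against 3918 to 3932 CPM. *Csf1r*, the microglial growth factor receptor, had 0.58 at P8. Of 10 neuronal markers 3 were measured, with 1, 2 and 2 called higher and 0 lower, and *Stmn2* was at 152 and 152.5 CPM in P8 libraries labelled cKO against 50.2 and 49.5 CPM in those labelled WT. *Syt1* was called higher at P1, P6 and P8 (2.29, 1.83 and 0.68) at no more than 11.9 CPM, and *Tubb3* was not called. Of 7 endothelial markers 5 were measured, with 3 and 0, 0 and 4, and 1 and 2 called higher and lower, while *Pecam1* and *Cldn5* were not analysed here. Vascular cadherin *Cdh5* had the signs of the collagen genes, with values of 3.05, -6.03 and -3.76, and the VEGF receptor genes *Flt1* (1.501, 0.53 and 1.92) and *Kdr* (0.087, -0.90 and 0.17) did not. None of these lists' part in the lineage genes' values was tested.

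Genes whose log2 CPM followed a lineage gene most closely over the 12 libraries were sought among 15146 genes with a mean of at least 1 CPM. These correlations are descriptions over libraries that share ages and genotypes. For *Olig2* they were *Limch1* (Pearson r = 0.990), *Syt11* (0.984) and *Cry2* (0.980). *Limch1*, an actin-linked protein gene, was at 93.3 to 109 CPM in all P1 and P6 libraries and 36.9 to 42.4 CPM in all P8 libraries, and so was lower after the same step as *Olig2*. For *Pdgfra* they were the heparanase gene *Hpse* (0.973), *Gm7027* (0.965) and *Aldh1l2* (0.962), a mitochondrial folate enzyme at 6.67 to 13.3 CPM before P8 and 52.0 to 62.4 CPM at P8. For *Sox10* the likeness was weaker, with *Ibtk* (0.892), *Nbas* (0.890) and *Nfic* (0.890).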

How the data were processed

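RNA was sequenced after mRNA capture, and strand, the counting program and the gene annotation were not given in the sources used here. The authors deposited raw counts per gene for 12 libraries, 2 for each of 6 groups, aligned to mm10 (GRCm38) with HISAT2 per the labels, and named ballgown and DESeq2 for their own differential expression. A count of 4 occurred 1959 times, against 1401 for 3 and 1060 for 5, so a count may not equal 1 read. The lineage genes had 32 to 6202 counts a library. All libraries were fitted together with edgeR 4.0.16 (limma 3.58.1, R 4.3.3) by the quasi-likelihood test, after filterByExpr and TMM scaling, with Benjamini-Hochberg adjustment. Calls needed an adjusted p below 0.05 and a fold of 1.5, and changes of the genotype difference the adjusted p alone. The procedure was tested on simulated data. Alternatives were DESeq2 1.42.0, its size factors, no filter, a replicate block, unadjusted p, a fold of 2, the compared ages alone and leaving out each library. Gene positions and exon lengths came from GENCODE vM21.

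The lineage genes and all lists were chosen with earlier results of these data known. Named in the text were the 9 lineage genes, the 3 measured genes of each other list with the highest mean CPM, up to 4 called genes with the largest genotype change from the other progenitor, other myelin, PDGF and differentiation inhibitor lists, the 3 genes most like each of *Olig2*, *Sox10* and *Pdgfra* in pattern (Pearson correlation of log2(CPM + 0.5)), and *Zmynd8*. Some genes of these lists, counted in the lists, are not reported here by name.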

Additional observations from a re-analysis of the deposited data

Results flagged for a closer look

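Genotype differences that themselves differed between ages, by the interaction term of the same edgeR fit with adjusted p over all genes, are listed here as changes on the log2 scale of libraries labelled cKO against those labelled WT. From P1 to P6 the difference changed by -0.50 for *Olig1* (adjusted p = 0.0335), by -1.39 for *Cspg4* (0.000162) and by 0.50 for *Cnp* (0.0165). From P6 to P8 it changed by 0.65 for *Olig1* (0.00715), by -0.94 for *Cspg4* (0.00121) and by 0.73 for *Mbp* (0.015). From P1 to P8 it changed by 1.83 for *Nkx2-2* (0.0199), by -2.10 for *Sox10* (0.0273), by -1.28 for *Pdgfra* (0.0459), by -2.33 for *Cspg4* (3e-06) and by 0.68 for *Mbp* (0.0169). On leaving out 1 of the 12 libraries in turn, the call from P1 to P6 was lost in 7 cases for *Olig1* and 2 for *Cnp*, and the call from P6 to P8 in 1 case for *Mbp*. From P1 to P8 it was lost in 11 cases for *Pdgfra*, 5 for *Sox10*, 4 for *Nkx2-2* and 4 for *Mbp*. The calls of *Cspg4* and the P6 to P8 call of *Olig1* were lost in 0 cases.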

How the results depend on the processing

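Of 80 differences of the 8 genes (10 comparisons), 33 were called. Over 17 alternatives of scaling, filter, tool, block and libraries, 22 of these kept the call in every one, 11 lost it in at least 1 and 0 reversed. Apart from these, a fold of 2 removed 9 of the 22 calls that needed a fold. Of the 47 not called, 10 passed in at least 1 alternative and 13 changed sign on leaving out a library. With 2 libraries a group, a library left alone was assumed to vary like the others, and genes at a few CPM (*Sox10*, *Nkx2-2*, *Pdgfra*) hold the least firm calls. The cause of the changes below was not tested.

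The number of the 8 genes called between genotypes at P1 went from 1 to 2 with DESeq2 or unadjusted p, to 0 at a fold of 2, and was 1 to 2 on leaving out a library. At P6 it went from 1 to 2 with DESeq2 or unadjusted p, to 0 at a fold of 2, and was 1 to 2 on leaving out a library. From P1 to P6 in libraries labelled cKO it went from 1 to 2 with DESeq2 or unadjusted p, to 0 at a fold of 2 or with the compared ages alone, and was 0 to 2 on leaving out a library. Leaving out a library gave 1 to 3 called changes of the genotype difference from P1 to P6, and 1 to 5 from P1 to P8.

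Same-numbered libraries did not deviate together over genes (r of -0.0436 to 0.0913 over 15 pairs of groups, 0 over 0.1). No strong effect shared by number was thus seen. This cannot show that same-numbered libraries were unpaired, since a pairing with a weak effect would look the same. With a replicate block the counts were 1, 1 and 3 between genotypes at P1, P6 and P8, 3 and 6 for the steps in libraries labelled WT, 1 and 5 for those labelled cKO, and 4, 3 and 5 for changes of the genotype difference. Under the replicate block *Sox10* at P8 (-1.25, adjusted p = 0.0624) and *Nkx2-2* from P6 to P8 in libraries labelled cKO (-0.90, 0.0619) were lost, and the *Pdgfra* change from P1 to P6 passed (-1.45, 0.0440).

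With the compared ages alone, calls were lost for *Pdgfra* from P1 to P6 in libraries labelled cKO (-0.96, adjusted p = 0.0731), *Nkx2-2* from P6 to P8 in those libraries (-0.96, 0.0826), and the genotype changes of *Olig1* from P1 to P6 (-0.50, 0.0569) and *Pdgfra* from P1 to P8 (-1.30, 0.0579). Without the filter *Nkx2-2* from P6 to P8 was at -0.93 (0.0511). DESeq2 called *Pdgfra* at P1 (0.89, 0.0318), *Nkx2-2* at P6 (0.89, 0.0396), *Sox10* from P1 to P6 in libraries labelled cKO (-1.18, 0.0221) and the *Pdgfra* change from P1 to P6 (-1.39, 0.0105).

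Signs that changed on leaving out a library were all those of uncalled values, with *Sox10* the furthest from 0 (-0.47 for its change from P6 to P8). Between genotypes the ranges were -0.19 to 0.055 for *Nkx2-2* at P1, -0.12 to 0.033 for *Olig2* at P6 and -0.061 to 0.054 for *Olig1* at P8. From P1 to P6 in libraries labelled WT they were -0.13 to 0.058 for *Mbp* and -0.15 to 0.11 for *Cnp*. In libraries labelled cKO they were -0.098 to 0.0059 for *Olig2*, -0.45 to 0.18 for *Nkx2-2*, -0.005 to 0.21 for *Cspg4* and -0.22 to 0.062 for *Mbp*, and from P6 to P8 -0.23 to 1.10 for *Sox10*. For changes of the genotype difference they were -0.18 to 0.10 for *Mbp* from P1 to P6, and -0.99 to 0.35 for *Sox10* and -0.068 to 0.33 for *Pdgfra* from P6 to P8.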

Other observations

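*Olig3*, a relative of *Olig1* and *Olig2* that marks dorsal progenitors of the hindbrain and spinal cord, was singled out after its values were seen. P1 counts were 12 and 4 for the WT label and 4 and 4 for the cKO label. P6 counts were 0 and 4 for the WT label and 42 and 8 for the cKO label. By P8 both libraries labelled WT had 0 counts, and those labelled cKO had 118 and 158. At P8 the libraries labelled cKO were at least 76.9-fold higher than a floor of 3 counts over the group labelled WT (edgeR adjusted p = 0.00315). At P6 the adjusted p was 0.0671.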
